A study of Homo sapiens with 6 samples.

Results

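Cyclins, cyclin-dependent kinases (CDKs), CDK inhibitors and the pocket proteins are described here in LN229 cells with and without ursodeoxycholic acid (UDCA). The 50 members were given as a list of symbols and matched by Ensembl identifier and GENCODE 29 symbol to the 33890 genes of the deposited table. Of them, 47 were listed, and CDKN2A, CDKN2B and CDKN2C were not among the genes listed. LN229 is an established human glioblastoma line, labelled as grade IV glioma and grown in serum-containing medium. The 6 libraries are 3 from control cells without UDCA and 3 from cells given 800 µM UDCA, a bile acid, for 48 h. Both groups are the same line with no other agent or allele named in the labels, and the labels do not say whether replicate libraries are separate cultures. The p-values therefore measure only the spread between these libraries, which may be technical.

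Levels are FPKM, reads divided by exon length and by the reads of the library over all listed genes, and are given as mean ± SD (n = 3 libraries a group). Whole reads recovered from the table summed to 15988951 to 17743022 per library, which puts 3 reads on 1 kb of exon at 0.169 to 0.188 FPKM, a limit that covers counting error only. Mitochondrially encoded genes took 3.13% to 3.16% of reads in control and 0.0263% to 0.0271% with UDCA, and since they are part of each total, the FPKM of all other genes is slightly raised by construction in the UDCA libraries. Of 6 glial markers, 4 (OLIG2, SOX2, NES and S100B) were at 1 FPKM or more in every library, while GFAP and SOX9 were below 1 FPKM in all 6. The summed level of the glial markers was 509 to 528 FPKM in control and 47.0 to 47.7 FPKM with UDCA, although OLIG2 was at 4.59 ± 0.509 and 4.81 ± 0.160 FPKM and did not pass (limma adjusted p = 0.47). The mesenchymal list (VIM, CD44 and FN1) summed to 539 to 544 FPKM in control and 288 to 294 FPKM with UDCA, and the part of either list in the results below was not tested. Summed leukocyte and hepatocyte markers stayed at or below 0.251 FPKM in every library, endothelial markers, nearly all VWF, went from 0.192 to 0.280 FPKM in control to 0.585 to 0.682 FPKM with UDCA, and the epithelial list, carried by KRT8 and KRT18, was at 19.0 to 21.6 FPKM. In bulk RNA, fewer cycling cells and less RNA of a gene per cell cannot be told apart.

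A CDK is inactive until a cyclin binds it. D-type cyclins with CDK4 or CDK6, and then E-type cyclins with CDK2, phosphorylate the pocket proteins RB1, RBL1 and RBL2 and so release E2F-dependent transcription, after which cyclin A with CDK2 or CDK1 and cyclin B with CDK1 carry the cell through replication and mitosis. Inhibitors of the INK4 family bind CDK4 and CDK6, and those of the CIP/KIP family bind cyclin-CDK complexes more broadly. A separate branch of the same families acts in transcription: CDK7 with cyclin H, CDK9 with cyclins T1 and T2, CDK12 and CDK13 with cyclin K, CDK8 and CDK19 with cyclin C in the Mediator complex, and CDK11 with cyclins L1 and L2 in splicing and transcription. Loss of the INK4 genes and gain of CDK4 or CDK6 are common in glioblastoma.

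Many cell-cycle genes carry promoter elements through which pocket proteins, E2Fs and the DREAM and MuvB complexes act. These are the E2F site and the cell cycle genes homology region (CHR), often near CCAAT boxes. The windows below show such matches in the members that fell most in level and in the pocket protein gene RBL1. They were picked among genes that fell, and members that rose also held matches, as given after the windows. A window of the transcriptional kinase gene CDK19, which also fell (3.46-fold), is added. Sequences are from RefSeq, build GRCh38.p14, 30 bases each, read 5′ to 3′ on the strand of the gene. Capitals mark the match, and positions count from +1 at the RefSeq start, with no position 0.
CDK1, CHR on both strands, -14 to 16, chr10:60778464-60778493, plus strand: gTTTGAAactgctcgcacttggcTTCAAAg
CDK1, E2F site, 9 to 38 of another start, chr10:60778339-60778368, plus strand: tttcctctttcTTTCGCGCtctagccaccc
CCNB1, CCAAT box, -67 to -38, chr5:69167083-69167112, plus strand: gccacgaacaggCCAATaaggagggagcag
CCNB2, CHR, -41 to -12, chr15:59105105-59105134, plus strand: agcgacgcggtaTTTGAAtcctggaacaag
CCNA2, CHR variant, -40 to -11, chr4:121823894-121823923, minus strand: agtcgcgggataCTTGAActgcaagaacag
CCNF, CHR, -97 to -68, chr16:2429350-2429379, plus strand: gggccgggtgcgTTTGAAaactggggtggg
CDKN3, CHR on the opposite strand, -182 to -153, chr14:54396825-54396854, plus strand: tcccgcgcgtctTTCAAAggtcttctagga
RBL1, E2F site, 2 matches, -32 to -3, chr20:37096000-37096029, minus strand: gcagatTTTCGCGCgcTTTGGCGCaggtgg
CDK19, E2F site on the opposite strand, -156 to -127, chr6:110815982-110816011, minus strand: accaatcaagaGCGGGAAAgaagccaaagc

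The search covered windows of 250 bases before to 50 after each RefSeq start, on both strands. A window was found for 45 members, 65 windows in all, some of them overlapping windows of 1 gene; CCND1, CCND2, CCNE2, CDK2 and CDKN1C had no entry. The CHR was searched as TTTGAA, its variant as CTTGAA, the CCAAT box as CCAAT, and the E2F site as TTTCCCGC, TTTGGCGC, TTTGCCGC or TTTCGCGC. TTTGAA was in 4 of 13 windows of cell-cycle cyclins and CDKs (genes CDK1, CCNB2 and CCNF), in 2 of 21 windows of transcriptional members (CCNC and CDK19) and in 15.2% of all 35116 windows. CCAAT was in 8 of 13, 7 of 21 and 34.6% of windows in the same order. An E2F match was in 2 of 13 windows, both of CDK1 and holding the same site, in 2 of 21 (CDK11B and CDK19) and in 3.3% of all windows. CTTGAA was in 1 of 13 (CCNA2), 2 of 21 (CCNH and CCNT1) and 11.2%. In the 31 windows of the other members, TTTGAA was in 3 (CDKN3, CCNI and RBL2) and CCAAT in 10. There an E2F match was in 2 (RBL1 and CDK10) and CTTGAA in 2 (CDK5 and RBL2). CCNI and RBL2 were higher with UDCA, and CDK10 was only 1.14-fold lower. Whether a match goes with a change in level was not tested. A match is a description of the letters, not evidence of binding.

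Cell-cycle cyclins and CDKs were lower with UDCA, several of them by more than 10-fold, while transcriptional cyclins and CDKs went both ways and mostly by less than 2-fold. The comparison was UDCA against control in limma on log2(FPKM + 1), over the 14380 genes that reached 1 FPKM in 3 or more libraries, with Benjamini-Hochberg adjustment and a threshold of 0.05. Most of the transcriptome passed: 80.8% of tested genes were called, 45.1% higher and 35.7% lower, and 82.8% had groups that did not overlap. A call alone therefore sets no member apart, and the sizes carry the description. Of 44 members tested, 14 were higher, 27 lower and 3 did not pass, with groups not overlapping in 42.

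Of 12 tested cell-cycle cyclins and CDKs, 11 passed, each of them lower. Their median log2 change was -1.92, beside 0.095 over all genes tested. This size depends on the scale: it was -2.90 with a pseudocount of 0.1 and -3.07 with voom on recovered reads, with all-gene medians of 0.11 in both. The 14 tested transcriptional members divided into 6 higher, 7 lower and 1 that did not pass, around a median of -0.01 and over a range from -1.56 to 0.91. By the ratio of mean FPKM, 9 of 12 cell-cycle members were at least 2-fold lower and 6 at least 10-fold lower, against 16.2% and 3.39% of all genes tested. Among transcriptional members 1 was at least 2-fold lower and 1 at least 2-fold higher (18.2% of all genes), and 12 of 14 lay within 2-fold. CCNE2, CCNA2, CCNB2, CCNF and CDK1 reached the minimum level through the control libraries only, so they had to differ, and these counts are a description and not a test of the class. Summed over all 13 genes, cell-cycle members stood at 33.0% of their control level with UDCA, from 423 ± 3.89 to 139 ± 2.92 FPKM, and the 15 transcriptional genes at 88.2%, from 175 ± 1.22 to 154 ± 3.22 FPKM.

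**Figure D1:**
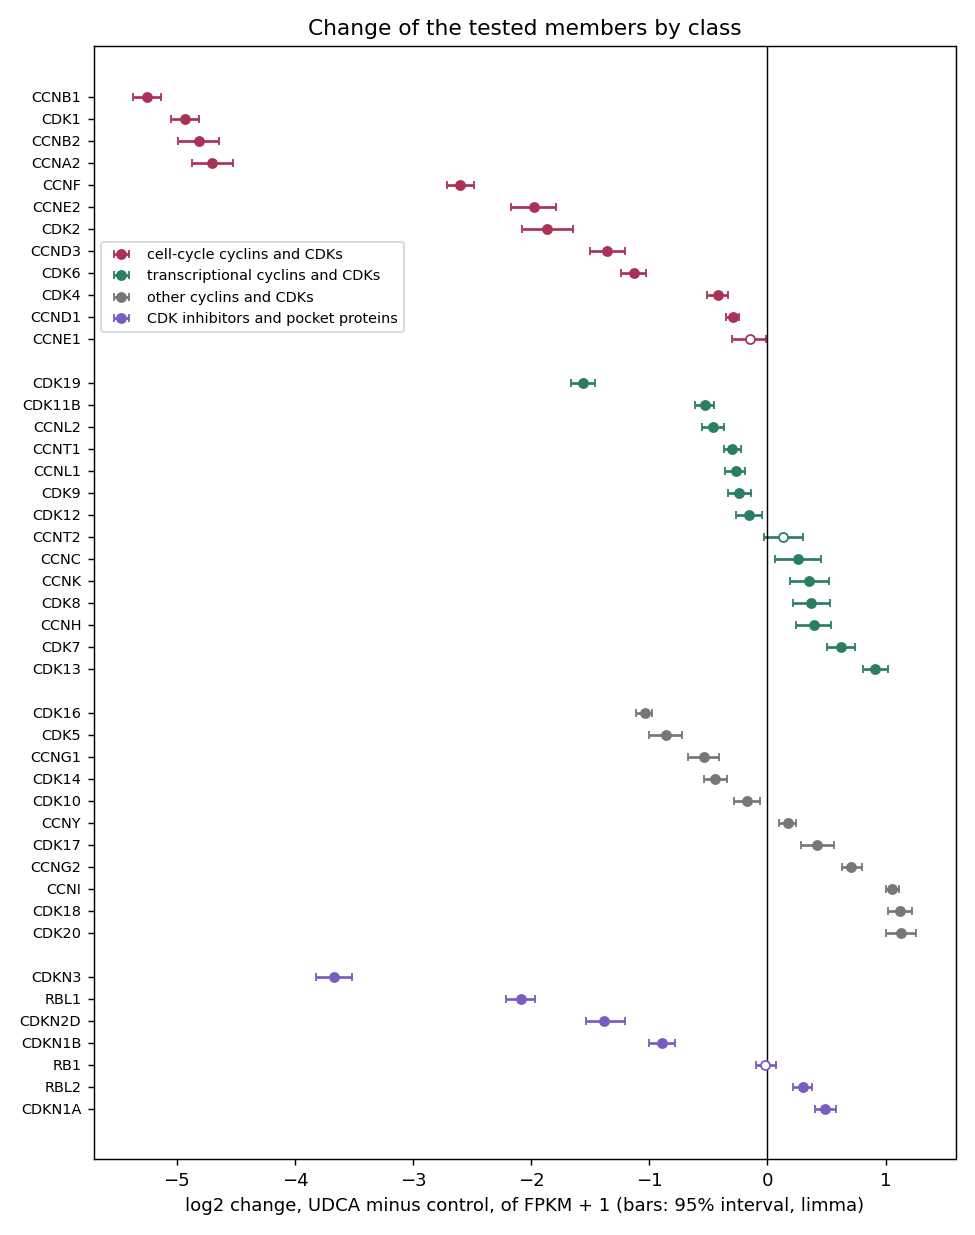
Log2 change of FPKM + 1, UDCA minus control, for the 44 tested members, in 4 colours by class; bars are 95% intervals from limma, filled points passed an adjusted p of 0.05 and open points did not. Cell-cycle members reach down to -5.25, while transcriptional members lie between -1.56 and 0.91.

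The D-type cyclins, which link growth signals to the cell cycle, fell unequally. CCND1 (chromosome 11, ENSG00000110092), cyclin D1, was at 99.5, 104 and 103 FPKM in control and at 81.8, 83.8 and 83.9 FPKM with UDCA, a 1.23-fold decrease (log2 change -0.29, SE 0.024, limma adjusted p = 2.2e-05). CCND3, cyclin D3, was at 11.1, 11.3 and 11.5 FPKM in control and at 3.43, 3.89 and 4.13 FPKM with UDCA. The groups were apart for both genes, and CCND3 fell by the larger factor, 2.96-fold. CCND2, cyclin D2, had 1 read over the 3 control libraries and 5 over the 3 with UDCA, too few to compare. CCND1 therefore made up nearly all D-type cyclin RNA in both groups, and it was the most abundant of all tested members in control.

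The E-type cyclins, which drive entry into S phase, separated. CCNE1 was at 3.58, 4.22 and 4.02 FPKM in control and at 3.34, 3.52 and 3.47 FPKM with UDCA. Its groups did not overlap, but the difference did not pass (log2 change -0.15, 95% interval -0.30 to -0.01, limma adjusted p = 0.054); it passed with quantile normalization (0.039), median-ratio scaling (0.0097), totals without mitochondrial genes (0.025) and without control replicate 1 (0.016), over a lower log2 change of -0.18 to -0.24. CCNE2 began at the same control level, 3.55, 4.26 and 4.06 FPKM, and with UDCA was at 0.213, 0.307 and 0.241 FPKM, on 899 and 56 reads. That is a 15.6-fold decrease (log2 change -1.98, SE 0.079, limma adjusted p = 5.6e-07). Exons of INTS8 and another gene cover 37.1% of the exon bases of CCNE2, so its residual level is uncertain.

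Cyclins of S phase and mitosis fell by 62.8-fold, 61.6-fold and 72.9-fold. CCNA2, cyclin A2, was at 42.5, 41.8 and 42.6 FPKM in control and at 0.760, 0.776 and 0.484 FPKM with UDCA. CCNB1, cyclin B1, was at 96.7, 97.3 and 94.3 FPKM and then at 1.71, 1.38 and 1.59 FPKM. CCNB2, the second B-type cyclin of mitosis, was at 45.3, 43.6 and 43.0 FPKM and then at 0.447, 0.754 and 0.610 FPKM. In all 3 genes the highest UDCA library was far below the lowest control library, with log2 changes of -4.70 (SE 0.073), -5.25 (SE 0.051) and -4.81 (SE 0.072) and limma adjusted p-values of 7.3e-09, 1.1e-09 and 6.4e-09. CCNF, an F-box cyclin that directs protein degradation and binds no known CDK as activator, fell 14.3-fold from 8.73 ± 0.0331 to 0.609 ± 0.0365 FPKM. Together with CCNE1 and CCNE2, these genes summed to 200.4, 199.9 and 197 FPKM in control and to 7.09, 7.30 and 7.02 FPKM with UDCA, or 3.59% of control. Of the remaining 7.14 ± 0.144 FPKM, CCNE1 supplied 3.44 ± 0.0947 FPKM.

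Their kinases fell in an order that ran from CDK1 to CDK4. CDK1 (chromosome 10, ENSG00000170312), the kinase of mitosis, was at 36.2, 34.6 and 33.2 FPKM in control and at 0.175, 0.209 and 0.120 FPKM with UDCA, on 7021 and 33 reads. This 206-fold decrease (log2 change -4.93, SE 0.051, limma adjusted p = 1.3e-09) was the largest by ratio among the members tested. CDK2, which pairs with cyclins E and A, was at 10.6, 9.90 and 8.97 FPKM and then at 1.64, 2.18 and 2.10 FPKM, 4.98-fold lower. CDK6 was at 17.2, 16.4 and 18.0 FPKM and then at 7.51, 7.36 and 7.02 FPKM, 2.36-fold lower (log2 change -1.13, SE 0.044). CDK4, the other partner of D-type cyclins, was at 48.4, 50.1 and 46.4 FPKM and then at 34.4, 36.5 and 36.8 FPKM, 1.35-fold lower (log2 change -0.42, SE 0.038, limma adjusted p = 4.1e-05). No library of one group entered the range of the other for any of the 4 kinases, as was true of 82.8% of all genes tested. Exons of TSPAN31 cover 43.2% of the exon bases of CDK4, so reads of the 2 genes may be mixed. For CDK2, exons of PMEL and another gene cover 16.8%.

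**Figure D2:**
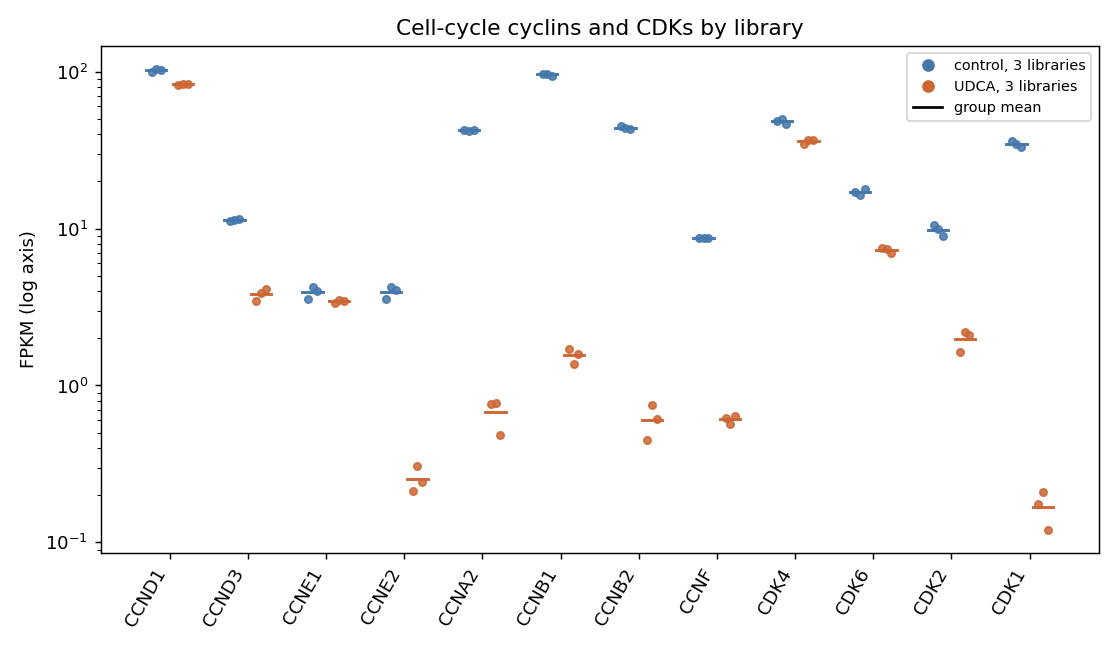
FPKM on a log axis for 12 cell-cycle cyclins and CDKs, each point 1 library and each line a group mean, control in blue and UDCA in orange; CCND2 is left out because 2 control libraries were at 0. CCNA2, CCNB2, CCNF, CCNE2 and CDK1 lie below 1 FPKM with UDCA, while CCND1, CCNE1 and CDK4 stay within 2-fold of control.

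Among the CIP/KIP inhibitors, CDKN1A and CDKN1B moved in opposite directions. CDKN1A, the gene of p21 and a typical p53 target, was at 55.4, 53.3 and 55.1 FPKM in control and at 78.6, 72.7 and 80.0 FPKM with UDCA (log2 change 0.49, SE 0.039, limma adjusted p = 2.1e-05). CDKN1B, the gene of p27, was at 34.2, 35.2 and 31.6 FPKM and then at 18.2, 16.9 and 18.0 FPKM, 1.90-fold lower (log2 change -0.89, SE 0.048, limma adjusted p = 2.5e-06). The summed level of the 3 CIP/KIP genes was 89.2 ± 1.37 FPKM in control and 95.2 ± 4.63 FPKM with UDCA, with groups that overlapped. CDKN1C, the gene of p57, was below the minimum level in most libraries and not tested, at 0.898 ± 0.184 and 0.381 ± 0.0875 FPKM on 115 and 47 reads.

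CDKN2D, the gene of the INK4 inhibitor p19, was at 9.68, 10.2 and 11.5 FPKM in control and at 3.16, 3.55 and 3.49 FPKM with UDCA. It fell 3.07-fold (log2 change -1.38, SE 0.069, limma adjusted p = 1.8e-06) and was the only INK4 member listed. CDKN3, named with the inhibitors but encoding a phosphatase that acts on CDKs, was at 24.7, 25.5 and 24.8 FPKM and then at 0.886, 1.02 and 1.22 FPKM. Its 24.0-fold decrease (log2 change -3.67, SE 0.063, limma adjusted p = 1.1e-08) was the largest by ratio in the inhibitor group and lay between the decreases of CCNF (14.3-fold) and CCNB1 (61.6-fold).

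The pocket proteins split 3 ways. RB1, the retinoblastoma protein gene, was at 18.1, 17.5 and 17.3 FPKM in control and at 17.9, 17.6 and 16.7 FPKM with UDCA. These ranges overlapped (log2 change -0.02, 95% interval -0.10 to 0.07, limma adjusted p = 0.65), and with median-ratio scaling RB1 passed as lower (log2 change -0.12, adjusted p = 0.011). RBL1, the gene of p107, was at 10.1 FPKM in each control library and at 1.69, 1.68 and 1.46 FPKM with UDCA, 6.27-fold lower. RBL2, the gene of p130, which is the pocket protein typical of resting cells, was at 10.9, 11.6 and 11.6 FPKM and then at 14.2, 14.4 and 14.0 FPKM, 1.25-fold higher (log2 change 0.30, SE 0.034, limma adjusted p = 0.00014). Exons of AKTIP and another gene cover 18.2% of the exon bases of RBL2, so its small rise is uncertain. Because of the fall of RBL1, RBL2 went from 52.9% ± 0.886 to 89.8% ± 0.648 of the summed RBL1 and RBL2 level.

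Among transcriptional cyclins and CDKs, members of some complexes moved in 1 direction and those of others divided. With 45.1% of all genes tested called higher and 35.7% lower, nothing is read from shared or divided directions in so few genes. CDK7 and CCNH, kinase and cyclin of the CDK-activating complex that is also part of TFIIH, both rose. CDK7 was at 7.86, 8.57 and 7.49 FPKM in control and at 13.1, 12.6 and 12.7 FPKM with UDCA (log2 change 0.62, SE 0.050, limma adjusted p = 2.2e-05). CCNH was at 4.22, 4.70 and 3.98 FPKM and then at 5.71, 5.92 and 6.24 FPKM (log2 change 0.39, limma adjusted p = 0.00085). Exons of RASA1 and another gene cover 22.3% of the exon bases of CCNH.

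The Mediator kinases, which are close paralogs that share cyclin C, moved in opposite directions. CDK8 was at 5.30, 5.45 and 5.54 FPKM in control and at 8.01, 7.40 and 6.64 FPKM with UDCA, 1.35-fold higher (log2 change 0.37, SE 0.064, limma adjusted p = 0.0013). CDK19 was at 12.9, 13.4 and 13.6 FPKM and then at 3.74, 3.75 and 4.06 FPKM, 3.46-fold lower (log2 change -1.56, SE 0.042, limma adjusted p = 8.7e-08). By FPKM, CDK19 was thus the more abundant of the pair in every control library, with 71.0% ± 0.119 of their sum. It was the less abundant in every UDCA library, with 34.5% ± 3.12. The order with UDCA depends on the exon lengths, 7492 bases for CDK19 and 3538 for CDK8. In reads, CDK19 had 448, 479 and 516 and CDK8 had 453, 446 and 399 with UDCA. The summed FPKM of the pair with UDCA was 59.7% of control, from 18.8 ± 0.482 to 11.2 ± 0.525 FPKM. CCNC, their cyclin, was at 6.00 ± 0.0486 and 7.40 ± 0.939 FPKM, with UDCA replicate 3 at 6.34 FPKM close to the control range. CCNC passed narrowly (log2 change 0.26, limma adjusted p = 0.022) and did not pass without any 1 library other than UDCA replicate 3 (0.053 to 0.070), with quantile normalization (0.056), with median-ratio scaling (0.10) or with no filter on low values (0.052).

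CDK9, the kinase of P-TEFb that releases paused RNA polymerase II, was at 21.7, 20.5 and 21.6 FPKM in control and at 17.1, 17.9 and 18.6 FPKM with UDCA (log2 change -0.24, SE 0.040, limma adjusted p = 0.0011). Its cyclin CCNT1 was at 16.8, 16.8 and 16.5 FPKM and then at 13.9, 13.2 and 13.1 FPKM, and fell with it (log2 change -0.30, limma adjusted p = 9.2e-05). CCNT2, the alternative cyclin of P-TEFb, was at 9.77, 9.23 and 9.54 FPKM and then at 11.2, 11.2 and 9.32 FPKM. With UDCA replicate 3 inside the control range CCNT2 did not pass (log2 change 0.13, 95% interval -0.03 to 0.30, limma adjusted p = 0.12); without that library it passed as higher (log2 change 0.21, adjusted p = 0.0025), as it did with voom on recovered reads (0.017).

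CDK12 and CDK13, which phosphorylate RNA polymerase II during elongation with cyclin K, separated by level. CDK13 was at 4.50, 4.29 and 4.76 FPKM in control and at 9.48, 9.47 and 9.17 FPKM with UDCA, 2.08-fold higher (log2 change 0.91, SE 0.044, limma adjusted p = 1.5e-06). CDK12 was at 8.94, 8.95 and 9.55 FPKM and then at 8.13, 7.69 and 8.47 FPKM, 1.13-fold lower (log2 change -0.16, limma adjusted p = 0.016), a call lost without control replicate 3 (0.054). By FPKM, CDK13 was thus below CDK12 in every control library and above it in every UDCA library, at 33.0% ± 0.549 and 53.7% ± 1.61 of their sum. These shares depend on the exon lengths, 25093 bases for CDK13 and 12773 for CDK12. In control reads CDK13 was only slightly below CDK12, at 1877, 1854 and 2119 against 1900, 1967 and 2165. CCNK was at 2.44 ± 0.235 and 3.39 ± 0.164 FPKM (log2 change 0.35, limma adjusted p = 0.0024), although exons of CCDC85C cover 59.5% of its exon bases.

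The splicing-linked members fell together: CCNL1 from 15.1 ± 0.361 to 12.3 ± 0.481 FPKM, CCNL2 from 37.5 ± 1.39 to 27.1 ± 1.01 FPKM and CDK11B from 21.3 ± 0.396 to 14.5 ± 0.461 FPKM. All 3 had groups that did not overlap, as did 82.8% of all genes tested, so nothing is read from this. Their log2 changes were -0.27, -0.46 and -0.53 (limma adjusted p = 0.00036, 2.7e-05 and 4.6e-06). CDK11A, a near-identical copy of CDK11B, had 12 reads over the control libraries and 14 over those with UDCA and was not tested. How reads that fit both copies were counted is not given in the sources used here, so the levels of CDK11A and CDK11B are uncertain.

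**Figure D3:**
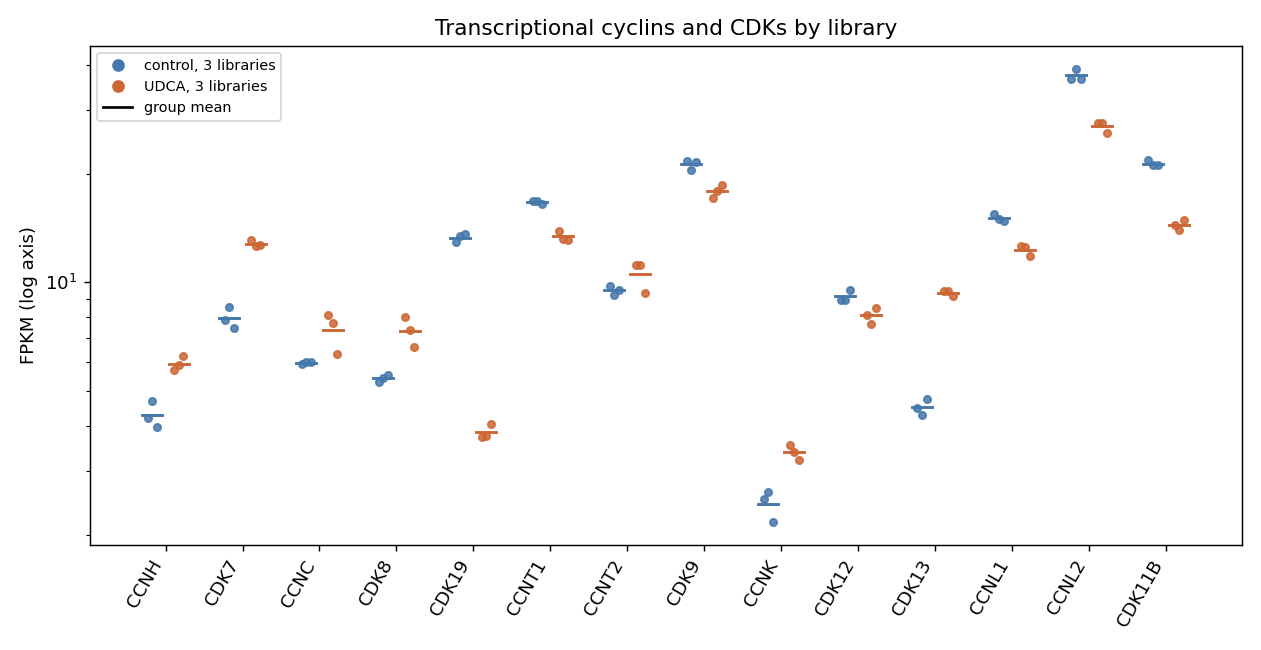
FPKM on a log axis for the 14 tested transcriptional cyclins and CDKs, ordered by complex, each point 1 library and each line a group mean, control in blue and UDCA in orange. CDK19 falls from 13.3 to 3.85 FPKM and CDK13 rises from 4.52 to 9.37 FPKM, while the other 12 genes stay within 2-fold.

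Of the 4 cyclins outside both branches, CCNI, CCNG2 and CCNY were higher with UDCA and CCNG1 was lower. CCNI, cyclin I, an atypical cyclin most studied in post-mitotic cells, was at 62.6, 61.1 and 63.8 FPKM in control and at 134, 129.7 and 129 FPKM with UDCA. Its 2.09-fold rise (log2 change 1.05, SE 0.025, limma adjusted p = 4.6e-08) made it the most abundant tested member with UDCA, above CCND1. CCNG1 and CCNG2, related cyclins linked to growth arrest and in the case of CCNG1 a known p53 target, moved in opposite directions. CCNG1 fell from 60.6 ± 0.403 to 41.3 ± 3.28 FPKM (log2 change -0.54, limma adjusted p = 7.1e-05), and CCNG2, a gene repressed by PI3K signalling through FOXO factors, rose from 7.35 ± 0.255 to 12.7 ± 0.198 FPKM (log2 change 0.71, limma adjusted p = 1.7e-06). CCNY, a membrane-bound cyclin of Wnt signalling, was at 13.2 ± 0.209 and 15.0 ± 0.291 FPKM (log2 change 0.17, limma adjusted p = 0.0012), a call lost with median-ratio scaling (0.082) and quantile normalization (0.067).

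All 7 other CDKs passed, 3 higher and 4 lower, where 80.8% of all genes tested passed, 45.1% higher and 35.7% lower. CDK16, the most abundant of them and a partner of cyclin Y, was at 47.2, 47.7 and 48.1 FPKM in control and at 22.6, 23.3 and 21.9 FPKM with UDCA, 2.11-fold lower (log2 change -1.04, SE 0.028). Its relatives CDK17 and CDK18 rose, CDK17 from 5.69 ± 0.313 to 7.94 ± 0.507 FPKM and CDK18 from 3.59 ± 0.0972 to 9.00 ± 0.306 FPKM, 2.51-fold. CDK20, a kinase of ciliary signalling, rose 2.93-fold from a low level, 1.58, 1.63 and 1.61 FPKM in control and 5.05, 4.60 and 4.54 FPKM with UDCA, the largest rise by ratio among the tested members. CDK5, best known from neurons, fell 1.94-fold from 12.5 ± 0.636 to 6.45 ± 0.468 FPKM. CDK14, another partner of cyclin Y, fell from 6.90 ± 0.206 to 4.83 ± 0.166 FPKM, and CDK10, the partner of cyclin M, was at 10.4 ± 0.480 and 9.14 ± 0.420 FPKM (log2 change -0.17, limma adjusted p = 0.013).

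**Figure D4:**
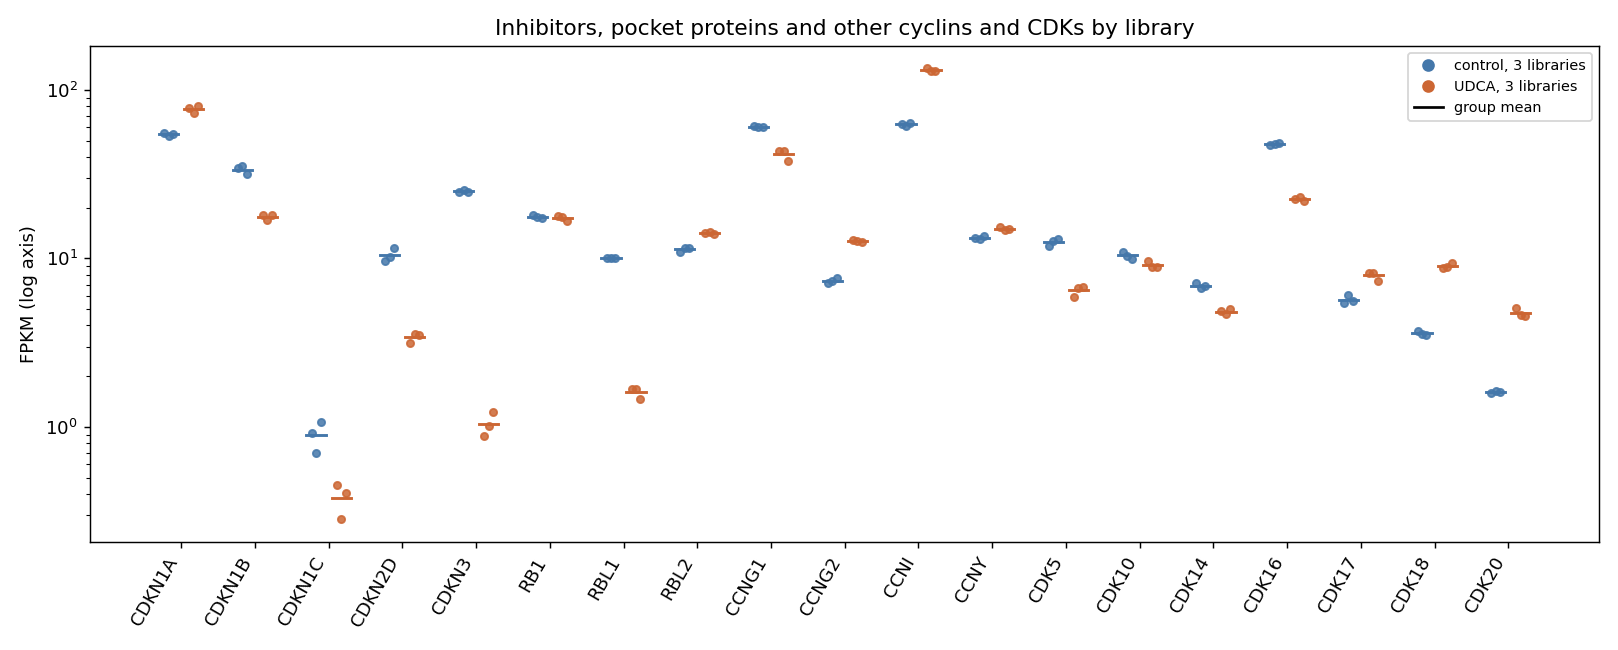
FPKM on a log axis for CDK inhibitors, pocket proteins and the other cyclins and CDKs, each point 1 library and each line a group mean, control in blue and UDCA in orange. CDKN3 and RBL1 fall furthest, CDK20, CDK18 and CCNI rise furthest, and the RB1 groups overlap.

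The balance within pairs of related members was compared as well. Shares of the summed FPKM, a level per exon length, were compared in 8 pairs of related members, and in all 8 the control and UDCA libraries did not overlap. Single genes did not overlap in 82.8% of all genes tested, and the same was not counted for pairs of other genes, so nothing is read from this count. CCND3 went from 9.97% ± 0.112 to 4.39% ± 0.340 of the CCND1 and CCND3 sum, and CDK6 from 26.3% ± 1.65 to 16.9% ± 0.952 of the CDK4 and CDK6 sum. CDKN1A went from 61.9% ± 1.66 to 81.3% ± 0.285 of its sum with CDKN1B, while that sum was 88.3 ± 1.45 and 94.8 ± 4.55 FPKM. CCNT2 was at 36.3% ± 0.675 and 44.0% ± 2.18 of its sum with CCNT1, and CCNL1 differed least, from 28.7% ± 0.960 to 31.3% ± 0.0377 of its sum with CCNL2. With 3 libraries against 3, the 2-sided exact permutation p was 0.1 for each pair, also after adjustment over the 8 pairs; this is the smallest such a design can give, so none passed 0.05.

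**Figure D5:**
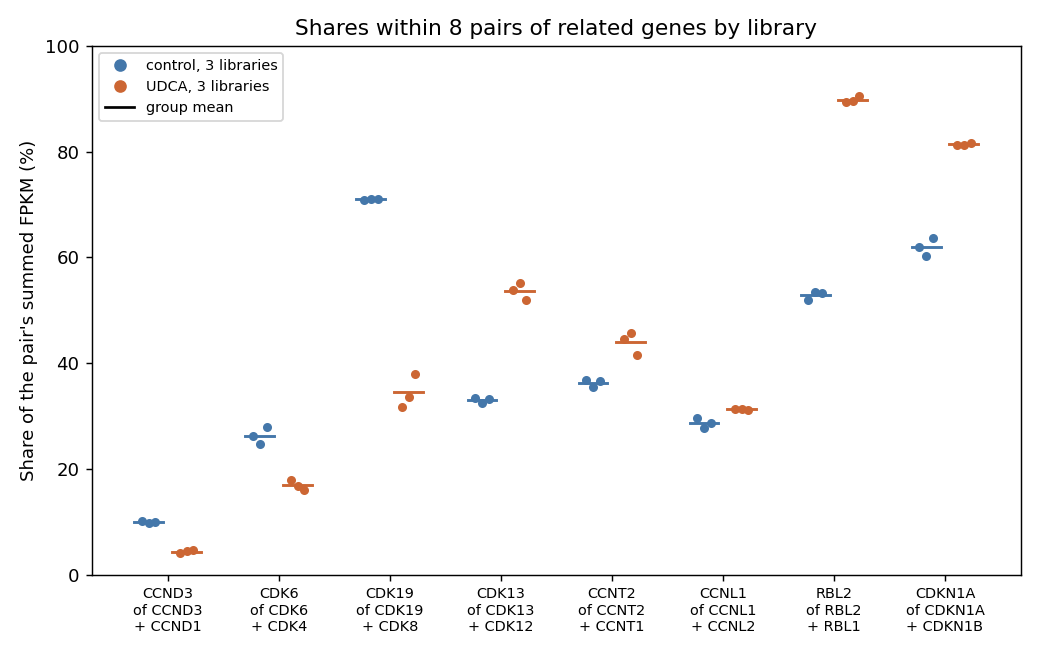
Share of the first-named gene in the summed FPKM of each of 8 pairs, in percent from 0 to 100, each point 1 library and each line a group mean, control in blue and UDCA in orange. CDK19 lies at 71.0% of its pair in control and 34.5% with UDCA, and RBL2 at 52.9% and 89.8%.

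The order of abundance among the 44 tested members changed accordingly, by FPKM, which depends on the exon length used for each gene. In control CCND1 (102 ± 2.34 FPKM) and CCNB1 (96.1 ± 1.63 FPKM) led, followed by CCNI and CCNG1, and CDK20 was last at 1.61 ± 0.0249 FPKM. With UDCA CCNI (131 ± 2.71 FPKM), CCND1 (83.2 ± 1.16 FPKM) and CDKN1A (77.1 ± 3.87 FPKM) led, and the last places were held by CCNA2, CCNF, CCNB2, CCNE2 and, at 0.168 ± 0.0449 FPKM, CDK1. CCNB1 moved from place 2 to place 38 and CDK1 from 11 to 44. Some neighbours could not be ordered beyond their spread, such as CDK11B (21.3 ± 0.396 FPKM) and CDK9 (21.2 ± 0.659 FPKM) in control, or CCNA2 (0.673 ± 0.164 FPKM), CCNF (0.609 ± 0.0365 FPKM) and CCNB2 (0.604 ± 0.154 FPKM) with UDCA.

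Of 9 tested regulators of CDK phosphorylation and CDK subunits, 7 were lower and 2 higher (median log2 change -1.74). PKMYT1 and CDC25C passed the filter through control only and had to come out lower, so the count and median are a description. Of all genes tested, 80.8% were called, 45.1% higher and 35.7% lower. PKMYT1, an inhibitory kinase of CDK1, fell 87.0-fold from 9.97 ± 0.309 to 0.115 ± 0.0337 FPKM. Exons of KREMEN2 and PAQR4 overlap 31.6% of PKMYT1. CDC25C, the phosphatase that activates CDK1 at mitosis, was at 7.74 ± 0.320 FPKM on 1331 control reads and had 2 reads over the UDCA libraries. These 2 genes were named as the largest falls of the list. Their sizes do not stand for those of its other regulators of CDKs, such as WEE1, CDC25A and CDC25B. Apart from the 2 higher genes named next, every tested gene of the list was called lower. The 2 higher genes were CDC14B, a phosphatase that opposes CDKs, from 3.27 ± 0.260 to 7.18 ± 0.109 FPKM, and MNAT1, the assembly factor of CDK7 and cyclin H, from 4.52 ± 0.152 to 5.59 ± 0.699 FPKM (limma adjusted p = 0.025).

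Of 13 tested genes of cyclin and inhibitor degradation, 8 were lower, 4 higher and 1 did not pass (median -0.15), with CDC20 passing the filter through control only. CDC20, which directs the anaphase-promoting complex to cyclin B, fell from 119.9 ± 0.793 to 0.747 ± 0.122 FPKM, and FBXO5, an inhibitor of that complex, fell 9.18-fold. FBXO31, an F-box gene linked to cyclin D1 turnover, rose 1.98-fold from 4.80 ± 0.0979 to 9.52 ± 0.204 FPKM, and BTRC rose 1.47-fold. Among E2F, DP and DREAM or MuvB genes 12 of 17 were lower, 4 higher and 1 did not pass (median -1.38). Of these 17, E2F1, E2F2, E2F8, FOXM1, LIN9, MYBL1 and MYBL2 passed the filter through control only, so 7 of the 12 decreases were bound to appear. Beside both lists, 80.8% of all genes tested were called, 45.1% higher and 35.7% lower, so nothing is read from being called. MYBL2, the B-MYB gene, fell 421-fold from 69.4 ± 1.27 to 0.165 ± 0.0406 FPKM, and FOXM1, a transcription factor of mitotic genes, fell 56.1-fold. LIN54, the MuvB subunit that binds the CHR, rose 1.42-fold from 3.64 ± 0.292 to 5.16 ± 0.302 FPKM, and E2F5, a repressive E2F, rose 2.95-fold from 1.47 ± 0.124 to 4.33 ± 0.620 FPKM. Exons of other genes cover 18.6% of the exon bases of E2F5, 16.1% of those of FBXO31 and 15.9% of those of FOXM1.

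Of 16 tested partners of the transcriptional CDKs, 7 were higher, 4 lower and 5 did not pass (median 0.06). Over all genes tested 80.8% were called, 45.1% higher and 35.7% lower, so nothing is read from both directions being present. HEXIM1, which holds CDK9 inactive in the 7SK complex, was at 36.9, 39.4 and 38.1 FPKM in control and at 5.63, 6.18 and 5.20 FPKM with UDCA, 6.73-fold lower (log2 change -2.55, SE 0.057, limma adjusted p = 3.5e-08). ELL2, a subunit of the super elongation complex that works with CDK9, was at 3.19, 3.48 and 3.71 FPKM and then at 16.2, 16.3 and 16.1 FPKM, 4.68-fold higher (log2 change 1.95, SE 0.049, limma adjusted p = 6e-08). Both changes were larger than that of CDK9 or either T-type cyclin, but the 2 genes were named as the largest fall and rise. HEXIM2, LARP7, AFF1, MLLT3 and SUPT5H did not pass (limma adjusted p = 0.21, 0.16, 0.77, 0.051 and 0.26). In the Mediator kinase module MED12 fell 1.67-fold from 11.1 ± 0.182 to 6.63 ± 0.539 FPKM, and MED13L rose 1.68-fold from 2.28 ± 0.0193 to 3.84 ± 0.0971 FPKM.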

How the data were processed

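TruSeq libraries of polyadenylated RNA from LN229, 3 control and 3 with UDCA, were sequenced, per the labels' protocols. HISAT2, Bowtie2 2.0.6 and GRCh38 are named without a role, per the submitters' processing notes. How reads were counted, and whether by strand, is not given in the sources used here. Values deposited by the authors carry no unit name and were read as FPKM: multiplied by merged exon length in GENCODE 29, they became whole reads in 100% of cases (tolerance 0.01 reads). Coordinates of all 33890 genes equal GENCODE 29.

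The 14380 genes that reached 1 FPKM in 3 or more of 6 libraries were tested with limma 3.58.1 (trend) in R 4.3.3 on log2(FPKM + 1), a scale that understates changes of low genes, with group as the only term. The test was checked on simulated reads in which few genes changed. That check does not cover changes as wide as those seen here. All 50 members were named, and of each related list up to 2 called genes per direction, by size of change, given a mean of 2 FPKM or more in either group. The members, lists, pairs and motifs were chosen with earlier results of these data known. Alternatives were 3 scalings, a pseudocount of 0.1, no filter, voom on recovered reads, a replicate block and leaving out each library. Tables and plots used Python 3.11.15, pandas 2.3.3 and matplotlib 3.10.9.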

Additional observations from a re-analysis of the deposited data

How the results depend on the processing

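Of 44 tested members, 38 kept their direction and their side of the threshold under all 13 alternatives, as did 552 of 572 values over the 44 members; the others, with their values above, were CCNE1, CCNC, CCNT2, CDK12, CCNY and RB1. When 1 library was left out, the log2 change of RB1 ranged from -0.04 to 0.01 and changed sign without control replicate 1 (0.0005) and without UDCA replicate 3 (0.01), in neither case past the threshold. The log2 change of the median gene, 0.095, was near 0 with median-ratio scaling, which called 5784 genes higher and 5826 lower in place of 6491 and 5133. The number of cell-cycle members called was 11 to 12, of transcriptional members 11 to 14 and of all genes 11218 to 11381 over these 6 repeats, with the same 14380 genes tested. Same-numbered control and UDCA libraries did not deviate together (correlations -0.00119 to 0.0143), so the numbers were not taken as pairs; with the replicate block 11503 genes were called and no member changed its call. Depth limits CCND2, CDK11A and the residual levels of CDK1, CCNE2 and the mitotic cyclins with UDCA.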

Other observations

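Of 23 further cyclins, CDK-like kinases and partners, 12 were tested: 4 were higher, 5 lower and 3 did not pass (median log2 change 0.03, limma on log2(FPKM + 1)). Of the 12, 2 passed the filter through the UDCA libraries only and had to come out higher. Of all genes tested, 80.8% were called, 45.1% higher and 35.7% lower, so nothing is read from these counts. CDK2AP1, a CDK2-associated growth suppressor, fell 4.73-fold from 43.5 ± 1.72 to 9.20 ± 0.754 FPKM (n = 3 in each group), a decrease close in size to that of CDK2 itself. CDK2AP1 was named as the largest fall of the list, and exons of another gene cover 16.5% of its exon bases. CCNJL, a cyclin J relative, fell 1.87-fold from 4.24 ± 0.171 to 2.27 ± 0.125 FPKM, while CCNJ, cyclin J, rose 2.05-fold from 2.98 ± 0.365 to 6.10 ± 0.618 FPKM. CCNQ, cyclin M and the activator of CDK10, rose 1.32-fold from 6.23 ± 0.168 to 8.25 ± 0.217 FPKM, opposite in direction to CDK10.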
